A study of Mus musculus with 12 samples.

Results

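The genes described here carry glucose into the cell, break it down to pyruvate and lactate, or are classical targets of the hypoxia response. They were chosen by name, as 40 gene symbols, and each symbol was found among the 35496 Ensembl genes of the count table. Aldoa matched 2 gene IDs (the aldolase gene itself, ENSMUSG00000030695, and a minor row just upstream of it, ENSMUSG00000114515), so that the 40 symbols gave 41 rows. The RNA was extracted from the cochlea, the spiral part of the inner ear that detects sound, of FVB/NCrl mice, an inbred albino strain, at 60 days of age. Awake animals heard noise for 30 minutes at 70 dB (ambient), 94 dB (loud) or 105 dB (very loud), with 4 libraries at each level, and tissue was taken immediately afterwards. No genetic change, drug or recovery time separates the groups, and the sources used here do not say how many animals went into a library. The p-values below therefore measure the spread between these libraries, which may be partly technical.

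Glucose enters cells through the Slc2a (GLUT) transporters and is trapped by hexokinases. Phosphofructokinase makes the committed step of glycolysis, and the bifunctional Pfkfb enzymes set the level of fructose 2,6-bisphosphate that drives it. The lower enzymes, from aldolase to pyruvate kinase, turn the sugar into pyruvate. Lactate dehydrogenase and the Slc16a (MCT) carriers then decide between lactate export and oxidation. The pyruvate dehydrogenase kinases (Pdk) inhibit pyruvate dehydrogenase and so restrain the oxidation of pyruvate. Many of these genes are induced by hypoxia-inducible factor (HIF), a transcription factor that binds sites with the core ACGTG when oxygen is low. In the cochlea, the stria vascularis, the hair cells and the neurons have a high energy demand.

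The promoters are shown first because the HIF core is what many of these genes are known for. Promoter sequences were taken from RefSeq for build GRCm38.p6, the assembly also called mm10, and 37 of the 40 genes had an entry. ACGTG, searched on both strands in windows from 250 bases before to 50 bases after the start site, stood in at least 1 window of 22 of these 37 genes (59.5%), against 5886 of all 27025 genes (21.8%). The E-box CACGTG, which contains the core on both strands, was present in 7 of the 37 genes (18.9%, against 8.1% of all genes). The cAMP response element TGACGTCA was found in Ldha alone among the 37 (2.7%, against 2.0% of all genes). Of the 11 genes with an entry that were called higher at 94 dB by the test described further on, 7 held ACGTG. The same core stood in 15 of the 23 that did not pass in either direction and in none of the 3 that fell. All genes together had 32851 windows, and 19.6% of these windows held ACGTG. Genes with more than 1 window, several of the 37 among them, had more chances of a match. The 37 also include genes listed as hypoxia targets, and the shares were not tested against each other. A match is a run of letters and not a measured binding site.
The 250 bases before the start site follow for 4 genes of the glucose and lactate steps and for 2 hypoxia targets that did not pass the test, read 5′ to 3′ along the gene, with ACGTG (or its complement CACGT) and TGACGTCA in capitals. They are Slc16a3 (chr11:120948817-120949066, plus strand), Slc2a1 (chr4:119108495-119108744, plus strand), Pgk1 (chrX:106186850-106187099, plus strand), Ldha (chr7:46845554-46845803, plus strand), Bnip3 (chr7:138909507-138909756, minus strand) and Ankrd37 (chr8:45999851-46000100, minus strand).
Slc16a3: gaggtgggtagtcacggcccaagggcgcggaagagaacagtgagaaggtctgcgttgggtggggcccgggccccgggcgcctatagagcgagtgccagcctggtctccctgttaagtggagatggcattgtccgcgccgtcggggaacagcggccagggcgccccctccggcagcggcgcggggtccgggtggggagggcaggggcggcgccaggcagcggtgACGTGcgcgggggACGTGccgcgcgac
Slc2a1: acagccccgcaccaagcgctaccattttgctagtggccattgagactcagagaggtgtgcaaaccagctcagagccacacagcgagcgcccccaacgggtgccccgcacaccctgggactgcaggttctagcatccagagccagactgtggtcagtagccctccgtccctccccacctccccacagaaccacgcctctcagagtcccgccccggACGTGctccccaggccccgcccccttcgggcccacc
Pgk1: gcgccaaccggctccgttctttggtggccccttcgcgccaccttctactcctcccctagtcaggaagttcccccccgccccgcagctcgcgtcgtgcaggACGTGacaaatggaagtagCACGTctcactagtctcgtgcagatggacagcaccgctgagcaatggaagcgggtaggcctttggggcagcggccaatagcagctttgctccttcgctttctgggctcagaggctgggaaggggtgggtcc
Ldha: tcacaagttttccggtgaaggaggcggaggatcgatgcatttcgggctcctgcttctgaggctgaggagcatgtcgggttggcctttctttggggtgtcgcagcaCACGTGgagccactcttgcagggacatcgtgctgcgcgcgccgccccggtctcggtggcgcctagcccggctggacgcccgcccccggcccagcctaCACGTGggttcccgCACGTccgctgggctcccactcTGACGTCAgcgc
Bnip3: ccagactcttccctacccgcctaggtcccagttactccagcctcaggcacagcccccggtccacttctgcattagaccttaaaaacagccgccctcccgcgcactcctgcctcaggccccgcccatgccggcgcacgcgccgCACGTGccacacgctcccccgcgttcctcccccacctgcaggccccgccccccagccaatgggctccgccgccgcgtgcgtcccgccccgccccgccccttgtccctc
Ankrd37: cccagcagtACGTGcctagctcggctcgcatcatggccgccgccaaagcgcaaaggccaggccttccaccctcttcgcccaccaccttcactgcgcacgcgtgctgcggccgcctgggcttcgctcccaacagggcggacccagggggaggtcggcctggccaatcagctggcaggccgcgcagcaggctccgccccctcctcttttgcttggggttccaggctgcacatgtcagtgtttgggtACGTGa

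Depth was even, with 31141706 to 42317781 counts per library, so that 3 counts equal 0.0703 to 0.0966 CPM (a gene's counts relative to the size of its library, scaled by TMM factors). All 41 rows were well above this floor and passed the filter on low counts. Markers of the cochlea were present, with 11 of 11 spiral ganglion neuron and 11 of 11 hair cell markers above the filter. The prestin gene Slc26a5, which defines outer hair cells, was nevertheless near the floor (0.250 ± 0.0852 CPM at 70 dB, SD, n = 4), against 22.3 ± 2.53 CPM for Myo7a. The tissue also held skeletal muscle, bone, erythroid cells and neutrophils. The share of mitochondrially encoded counts was 2.69% and 2.73% in 94 dB replicates 3 and 4 and 3.53% and 3.59% in replicates 1 and 2, against 5.08% to 5.68% at 70 dB and 4.43% to 5.35% at 105 dB. Counts of calls at 94 dB are therefore also given without replicates 3 and 4 where that changed them. Across genes, log2 fold changes at 94 dB also went with GC content (Spearman's rho 0.46 over 19484 genes, which are not replicates, against 0.090 at 105 dB). In bulk tissue, fewer cells of a type and less RNA per cell cannot be told apart.

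At 94 dB, 12 of the 41 rows were higher than at 70 dB and 3 were lower (edgeR quasi-likelihood test, adjusted p under 0.05 over 19497 genes). Of all genes tested, 13.9% were called higher and 12.2% lower in this comparison. The 12 that rose spanned the pathway from entry to export: the glucose transporters Slc2a1 and Slc2a3, hexokinase Hk2, Pfkl and Pfkfb4, the lower enzymes Tpi1, Gapdh, Pgk1, Eno3 and Pkm, the lactate exporter Slc16a3, and the hypoxia-inducible Higd1a. Those that fell were Ldhb, Pdk1 and Kdm3a. At 105 dB none of the 41 passed, where 1.11% of all genes were called higher and 0.508% lower. An unadjusted p under 0.05 was reached by 7 of the 41 (17.1%, against 18.7% of all genes), and DESeq2 called 2 (4.88%, against 4.96% of all genes), both near the background. The median log2 fold change of the 41 rows was 0.13 at 94 dB and 0.07 at 105 dB, against -0.02 and -0.004 over all genes. By group means, 24 of the 41 were highest at 94 dB and 12 at 105 dB.

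Library by library, 10 of the 41 rows had all 94 dB libraries above all 70 dB libraries and 1 (Ldhb) had them all below, which is 26.8% of the rows, close to the 25.4% of all genes tested whose groups did not overlap. The members together took 1.04% ± 0.0309 (SD, n = 4) of the reads counted in the 70 dB group, 1.17% ± 0.0886 in the 94 dB group and 1.07% ± 0.0228 in the 105 dB group. Replicate 4 of the 94 dB group had the highest of the 12 values for 13 of the 41 rows. With 94 dB replicates 3 and 4 left out, 7 of the 12 that rose were still called (Slc2a1, Slc2a3, Hk2, Tpi1, Pgk1, Slc16a3 and Higd1a) and none of the 3 that fell, which is 17.1% of the rows against 7.97% of all genes in that fit. With a trend on GC content and exon length removed from each library, 7 of the 15 calls were left, namely Slc2a1, Slc2a3, Tpi1, Pgk1, Slc16a3 and Higd1a higher and Ldhb lower. That share, 17.1% of the rows, was near the 16.5% of all genes called in the same fit.

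**Figure D1:**
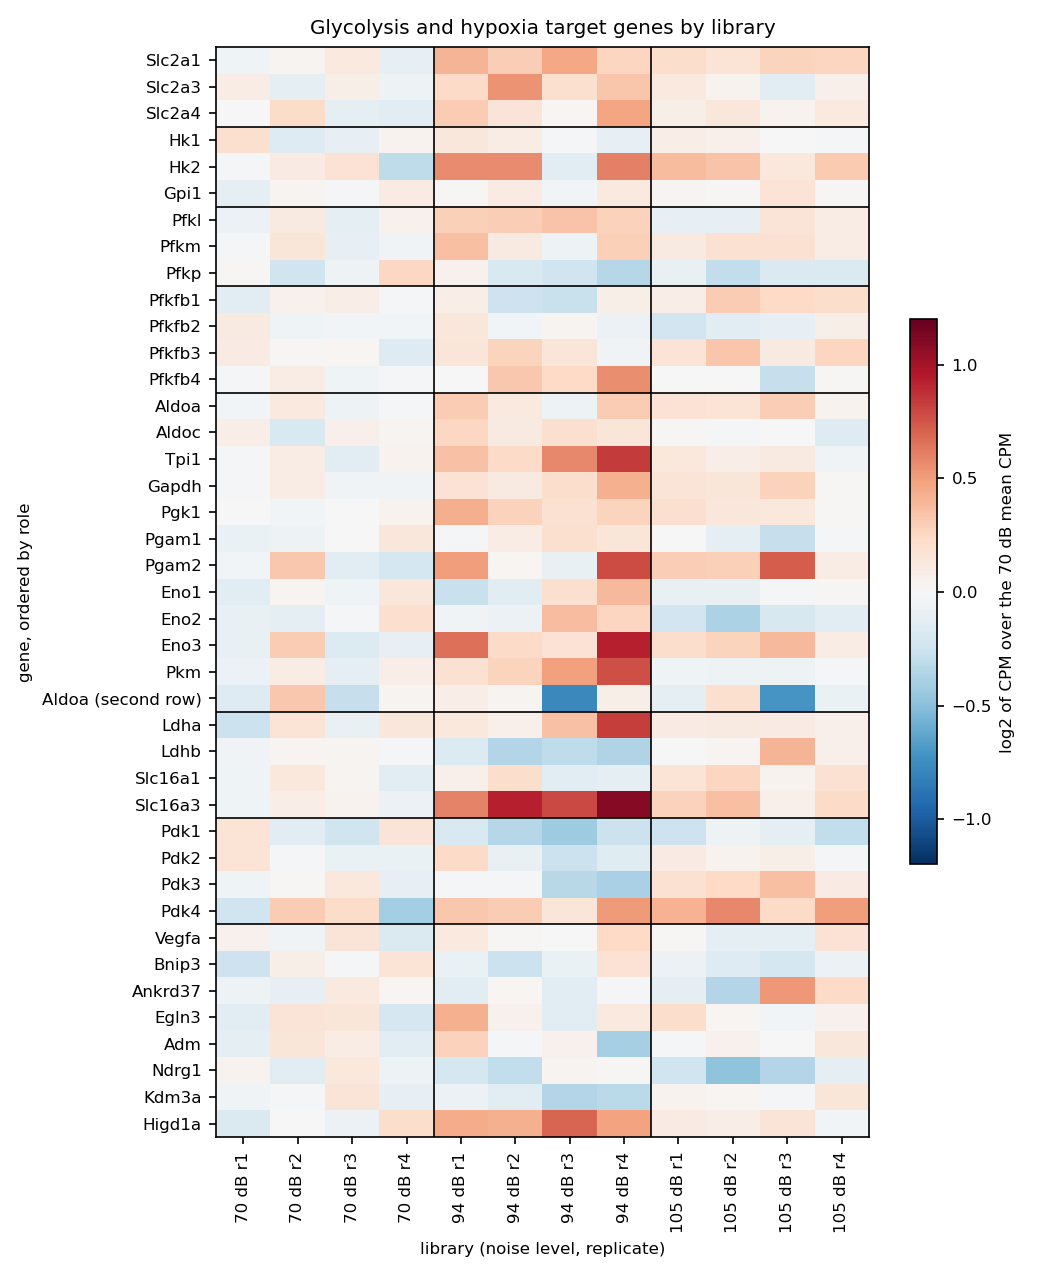
Each cell shows the log2 ratio of a gene's CPM in 1 library (columns, 4 per noise level) to its mean CPM at 70 dB, for the 41 rows ordered by role, with lines between roles. Red cells gather in the 94 dB columns, most densely for Slc16a3, Tpi1, Pkm and Higd1a, and in replicate 4 for 13 rows that have their highest value there.

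Transcripts of 2 of the 3 glucose transporters rose at 94 dB. Slc2a1 (GLUT1), the transporter of blood vessels and the blood-labyrinth barrier, was at 116, 123, 130.1 and 112 CPM at 70 dB, 159, 148, 166 and 143 CPM at 94 dB, and 139.5, 135, 145 and 144 CPM at 105 dB (replicates 1 to 4 in order, here and below). Every 94 dB library exceeded every 70 dB library (log2 fold change 0.36 ± 0.07 (SE), adjusted p = 0.00151, edgeR). The 105 dB libraries also lay above all 70 dB libraries, but this difference did not pass (log2 fold change 0.23 ± 0.07 (SE), adjusted p = 0.0967, edgeR; with DESeq2 adjusted p = 0.0292). Slc2a3 (GLUT3), the high-affinity transporter of neurons and white blood cells, was at 86.8, 75.9, 85.5 and 78.4 CPM at 70 dB, 95.6, 119, 93.0 and 103 CPM at 94 dB, and 88.5, 84.0, 74.5 and 85.2 CPM at 105 dB. Its 94 dB values were all above the 70 dB values (log2 fold change 0.33 ± 0.08 (SE), adjusted p = 0.00800, edgeR), with replicate 2 the highest. At 105 dB the values lay around the 70 dB range (log2 fold change 0.02 ± 0.08 (SE), adjusted p = 0.899, edgeR). Slc2a4 (GLUT4), the insulin-responsive transporter of muscle and fat, overlapped between the groups (mean 83.1 ± 9.65 CPM, SD, n = 4 at the lowest level, against 98.5 ± 13.2 CPM at 94 dB and 88.6 ± 2.54 CPM at 105 dB; log2 fold change 0.25 ± 0.09 (SE), adjusted p = 0.0585 at 94 dB, edgeR; with DESeq2 adjusted p = 0.0486). Per kilobase of exon, Slc2a1 made up 49.4% ± 2.06 of the summed level of the 3 transporters (SD, n = 4) in the 70 dB group, 50.9% ± 4.05 in the 94 dB group and 52.1% ± 1.62 in the 105 dB group.

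Of the enzymes that trap glucose, the inducible hexokinase changed and the constitutive one did not pass. Hk1, the hexokinase of brain and red cells, was at 226 ± 24.7 CPM, 231 ± 16.8 CPM and 231 ± 7.47 CPM in order of noise level (SD, n = 4; adjusted p = 0.791 at 94 dB, edgeR). Hk2, the hexokinase of muscle, was at 38.5, 41.9, 44.1 and 31.6 CPM at 70 dB, 57.9, 57.9, 35.8 and 59.4 CPM at 94 dB, and 50.7, 49.4, 42.6 and 48.5 CPM at 105 dB. Replicates 1, 2 and 4 at 94 dB were above every 70 dB library, and replicate 3 lay inside the 70 dB range. The difference just passed (log2 fold change 0.43 ± 0.15 (SE), adjusted p = 0.0448, edgeR). It was lost without any one of 9 of the 12 libraries, namely 70 dB replicates 1, 2 and 4, 94 dB replicates 1, 2 and 4 and 105 dB replicates 1, 2 and 4, with adjusted p between 0.0539 and 0.124. With 94 dB replicates 3 and 4 left out together it passed (log2 fold change 0.57, adjusted p = 0.00636). With the GC and length trend removed it did not (log2 fold change 0.42, adjusted p = 0.0678, edgeR). Gpi1, which turns glucose 6-phosphate into fructose 6-phosphate, was at 439.9 ± 27.9 CPM, 456 ± 22.1 CPM and 457 ± 22.8 CPM and did not pass (log2 fold change 0.05 ± 0.07 (SE), adjusted p = 0.620 for the 94 dB group, edgeR).

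Phosphofructokinase was carried mostly by the muscle isoform, while the liver isoform was the one called higher at 94 dB. Pfkm took 81.3% ± 1.14 (SD, n = 4) of the summed level per kilobase in the 70 dB group, 81.1% ± 2.14 in the 94 dB group and 83.1% ± 1.12 in the 105 dB group. Pfkl, the liver-type isoform, was at 120.4, 136, 117 and 131 CPM at 70 dB, 154, 155, 159.8 and 153 CPM at 94 dB, and 118, 118, 141 and 134 CPM at 105 dB. The 94 dB libraries formed a narrow group above the 70 dB libraries (log2 fold change 0.30 ± 0.07 (SE), adjusted p = 0.00659, edgeR), and the 105 dB values overlapped those at 70 dB. The call ended with 94 dB replicates 3 and 4 left out (adjusted p = 0.0515, edgeR) at nearly the same size (log2 fold change 0.29). It also ended with the GC and length trend removed, at a smaller size (log2 fold change 0.17, adjusted p = 0.133, edgeR). Pfkm itself, at 377 ± 27.3 CPM, 427 ± 55.1 CPM and 414 ± 14.0 CPM in order of noise level, did not pass (log2 fold change 0.18 ± 0.09 (SE), adjusted p = 0.130 for the 94 dB group, edgeR). The platelet isoform Pfkp was at 92.6 ± 13.1 CPM, 82.2 ± 9.61 CPM and 81.8 ± 4.83 CPM (log2 fold change -0.17 ± 0.10 (SE), adjusted p = 0.207, edgeR). Exons of Pfkp share 748 bases with Pitrm1 on the opposite strand, and whether counting used strand is not given in the sources used here, so that Pfkp counts are uncertain. Pfkm shares 18 exon bases with Senp1 in the same way.

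Among the bifunctional enzymes that set fructose 2,6-bisphosphate, Pfkfb4 was the member called. Pfkfb4 read 34.5, 37.3, 34.0 and 34.8 CPM at 70 dB, 35.0, 43.9, 41.4 and 51.8 CPM at 94 dB, and 35.0, 35.2, 29.1 and 35.5 CPM at 105 dB. At 94 dB replicate 1 lay within the 70 dB range, and replicates 2, 3 and 4 above it (log2 fold change 0.29 ± 0.10 (SE), adjusted p = 0.0388, edgeR). This call was lost without any one of 7 libraries (adjusted p between 0.0504 and 0.155, edgeR). These were 70 dB replicates 1, 3 and 4, 94 dB replicates 2, 3 and 4 and 105 dB replicate 2. With the GC and length trend removed it was lost too (log2 fold change 0.19, adjusted p = 0.186, edgeR). Pfkfb3, the highly kinase-active form that speeds glycolysis, was at 50.6 to 60.2 CPM at 70 dB, 54.6 to 67.7 CPM at 94 dB and 60.6 to 70.7 CPM at 105 dB. Its 105 dB libraries all lay above the 70 dB libraries, without passing (log2 fold change 0.22 ± 0.08 (SE), adjusted p = 0.157, edgeR). Pfkfb3 and Pfkfb4 shared the family about evenly per kilobase, with 40.8% ± 1.78 and 39.6% ± 1.70 at 70 dB (SD, n = 4). The liver form Pfkfb1 was low, at 4.97 ± 0.331 CPM, 4.69 ± 0.624 CPM and 5.75 ± 0.362 CPM in order of noise level. The heart form Pfkfb2 was at 16.9 ± 0.886 CPM, 17.2 ± 1.09 CPM and 15.9 ± 1.39 CPM. Both share exon bases with a more highly counted gene on the opposite strand (Apex2 and Yod1), so their counts are uncertain.

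The lower part of glycolysis held 5 of the 12 rises. These were the enzymes Tpi1, Gapdh, Pgk1, Eno3 and Pkm, of 12 rows, where 13.9% of all genes were called higher. Per kilobase at 70 dB, Aldoa had the highest level of all members (662 ± 37.0 CPM per kilobase), ahead of Ldhb (348 ± 9.26), Gapdh (323 ± 13.5) and Pkm (221 ± 15.5).

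Tpi1, triose phosphate isomerase, was at 337, 362, 312 and 350.4 CPM at 70 dB, 433, 398, 508 and 607 CPM at 94 dB, and 372, 360.4, 366 and 331 CPM at 105 dB. All 94 dB libraries were above all 70 and 105 dB libraries (log2 fold change 0.52 ± 0.10 (SE), adjusted p = 0.00238, edgeR). Within the 94 dB group, replicates 3 and 4 were higher than 1 and 2. Without those 2 libraries the log2 fold change was 0.29 (adjusted p = 0.0383, edgeR). Pkm, the pyruvate kinase of most tissues outside the liver, followed the same order at 94 dB. It was at 1056, 1174, 1025 and 1172 CPM at 70 dB, 1259, 1331, 1558 and 1892 CPM at 94 dB, and 1067, 1058, 1062 and 1090 CPM at 105 dB. The 105 dB libraries lay inside the 70 dB range and all 94 dB libraries exceeded it (log2 fold change 0.45 ± 0.10 (SE), adjusted p = 0.00532, edgeR). Without 94 dB replicates 3 and 4 the log2 fold change of Pkm fell to 0.23 and was no longer called (adjusted p = 0.0829, edgeR). With the GC and length trend removed it was 0.28 (adjusted p = 0.0614).

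Pgk1, phosphoglycerate kinase, which makes the first ATP of the payoff phase, was at 256, 250.1, 255 and 263 CPM at 70 dB, 347, 310.4, 291 and 309 CPM at 94 dB, and 293, 280.4, 279.9 and 258 CPM at 105 dB. The 70 dB libraries were tightly grouped and all 94 dB libraries lay above them (log2 fold change 0.30 ± 0.07 (SE), adjusted p = 0.00450, edgeR), with replicate 1 the highest. Pgk1 kept this call with 94 dB replicates 3 and 4 left out (log2 fold change 0.36, adjusted p = 0.00893). Gapdh, the enzyme often used as a loading control, was at 1326, 1416, 1299 and 1298 CPM at 70 dB, 1501, 1434, 1543 and 1798 CPM at 94 dB, and 1481, 1473, 1619 and 1347 CPM at 105 dB. Every 94 dB library was above every 70 dB library, and replicate 4 stood highest (log2 fold change 0.23 ± 0.08 (SE), adjusted p = 0.0441, edgeR). Without that replicate the adjusted p of Gapdh was 0.154 and the log2 fold change 0.16. The call also ended without any one of 70 dB replicates 1, 3 and 4, 94 dB replicate 3 and 105 dB replicates 1 and 2 (adjusted p between 0.0539 and 0.0918, edgeR). With upper-quartile scaling the adjusted p was 0.0762. With the GC and length trend removed it was 0.135 (log2 fold change 0.17, edgeR).

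The enolases differed by isoform. Eno3, the muscle enolase, was at 296, 388, 279.7 and 293 CPM at 70 dB, 498, 369.5, 354 and 599 CPM at 94 dB, and 364, 378, 411 and 334 CPM at 105 dB. Replicates 1 and 4 at 94 dB were above every other library, while replicates 2 and 3 fell below 70 dB replicate 2 (log2 fold change 0.54 ± 0.16 (SE), adjusted p = 0.0265, edgeR). The Eno3 call ended without 70 dB replicate 1, 3 or 4 or 94 dB replicate 1 or 4 (adjusted p between 0.0607 and 0.0728). It also ended with the GC and length trend removed (log2 fold change 0.31, adjusted p = 0.1595, edgeR). Eno2, the neuronal enolase, was at 266, 261, 279 and 324 CPM at 70 dB, 275, 268, 365 and 339 CPM at 94 dB, and 241, 217, 247 and 259 CPM at 105 dB. At 94 dB replicates 3 and 4 were high and replicates 1 and 2 were inside the 70 dB range, and all 105 dB libraries lay below all 70 dB libraries. Eno2 passed neither at 94 dB (log2 fold change 0.14 ± 0.10 (SE), adjusted p = 0.323, edgeR) nor at 105 dB (log2 fold change -0.23 ± 0.10 (SE), adjusted p = 0.232, edgeR). Eno1, the general enolase, overlapped throughout (473 to 571 CPM at 70 dB, 432 to 679.5 CPM at 94 dB, 487 to 523 CPM at 105 dB).

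The remaining rows of the lower pathway passed neither test against 70 dB. Aldoa, the muscle aldolase, ranged over 1848 to 2086 CPM at 70 dB, 1847 to 2383 CPM at 94 dB and 1985 to 2361 CPM at 105 dB (log2 fold change 0.17 ± 0.09 (SE), adjusted p = 0.158 at 94 dB, edgeR). Its second row was at 2.42 ± 0.446 CPM, 2.25 ± 0.554 CPM and 2.20 ± 0.533 CPM. Aldoc, the aldolase of brain, was at 58.0 to 69.2 CPM at 70 dB, 70.7 to 77.8 CPM at 94 dB and 58.8 to 66.4 CPM at 105 dB. The first pair did not overlap, with adjusted p = 0.0706 (edgeR). Pgam1, the brain-type phosphoglycerate mutase, was at 142 ± 9.93 CPM, 152 ± 9.60 CPM and 133 ± 11.2 CPM, and the muscle form Pgam2 at 124 ± 21.3 CPM, 158 ± 45.2 CPM and 161 ± 31.9 CPM (SD, n = 4). Neither passed at 94 dB (adjusted p = 0.323 and 0.248, edgeR). Reads of Aldoa, Gapdh, Pgk1, Pgam1 and Ldha can also be shared with pseudogenes of these genes, and the treatment of such reads is not given in the sources, so their counts are less certain. Only pseudogenes named after a member were looked for. Copies under other names were not searched, so the counts of other members may be affected too.

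**Figure D2:**
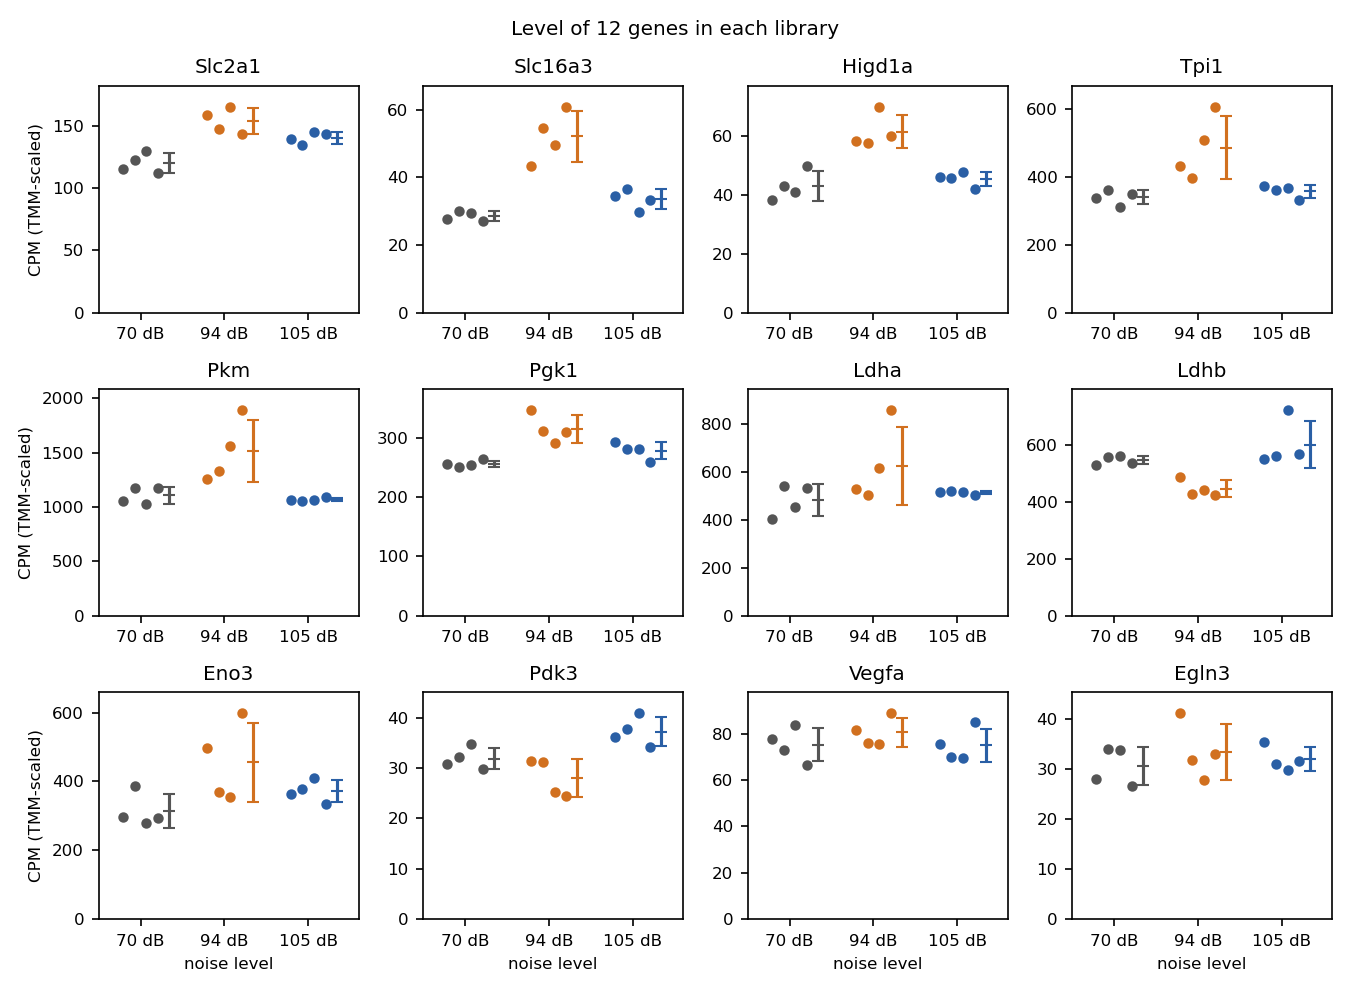
Points are the 4 libraries of each noise level (TMM-scaled CPM, linear axes from 0) and the bar beside them is the mean ± SD, for 12 genes. Slc2a1, Slc16a3, Higd1a, Tpi1, Pkm and Pgk1 have all 94 dB points above all 70 dB points, Ldhb has them below, and Vegfa and Egln3 overlap throughout.

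Lactate handling gave the largest single change. Slc16a3 (MCT4), the low-affinity carrier through which glycolytic cells export lactate, was at 27.5, 30.2, 29.4 and 27.2 CPM at 70 dB, 43.2, 54.6, 49.4 and 60.9 CPM at 94 dB, and 34.5, 36.6, 29.8 and 33.4 CPM at 105 dB. All 94 dB libraries were above all others, and the rise was 1.82-fold (log2 fold change 0.87 ± 0.09 (SE), adjusted p = 2.35e-05, edgeR). The 94 dB call of Slc16a3 held under each of the 24 alternatives run, including a fold threshold of 1.2. At 105 dB 3 of the 4 libraries lay above the 70 dB range (log2 fold change 0.23 ± 0.09 (SE), adjusted p = 0.197, edgeR). Slc16a1 (MCT1), the broad carrier that also imports lactate, did not follow, with 139 ± 10.7 CPM, 141 ± 15.8 CPM and 156 ± 9.58 CPM in order of noise level (SD, n = 4; adjusted p = 0.911 at 94 dB, edgeR). As a share of the 2 carriers per kilobase, Slc16a3 was 14.5%, 14.1%, 14.6% and 15.1% at 70 dB, 19.9%, 22.0%, 24.4% and 28.2% at 94 dB, and 15.6%, 15.5%, 14.8% and 14.9% at 105 dB. The 94 dB shares did not overlap those of either other group.

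Of the 2 lactate dehydrogenase genes described here, Ldhb was called lower at 94 dB by edgeR and Ldha was not called. Ldhb, the heart-type subunit that favours oxidation of lactate, was at 531, 558, 559.9 and 538 CPM at 70 dB, 488, 429.7, 443 and 426 CPM at 94 dB, and 550.3, 561, 724 and 569 CPM at 105 dB. All 94 dB libraries lay below all 70 and 105 dB libraries (log2 fold change -0.29 ± 0.09 (SE), adjusted p = 0.0190, edgeR). The call ended when 70 dB replicate 3, 94 dB replicate 2 or 94 dB replicate 4 was left out (adjusted p between 0.0530 and 0.0548, edgeR). It was also lost without 94 dB replicates 3 and 4 together (log2 fold change -0.25, adjusted p = 0.147). With the GC and length trend removed it was larger (log2 fold change -0.50, adjusted p = 7.52e-04). Ldha, the muscle-type subunit that favours lactate formation, was at 406, 542, 455 and 534 CPM at 70 dB, 528, 504, 618 and 861 CPM at 94 dB, and 517, 521, 517 and 506 CPM at 105 dB. Replicate 4 at 94 dB was by far the highest, replicate 3 lay above the 70 dB range and replicates 1 and 2 inside it, and Ldha did not pass (log2 fold change 0.38 ± 0.14 (SE), adjusted p = 0.0714, edgeR; with DESeq2 adjusted p = 0.0290). Without 94 dB replicate 1 or 2 it did (adjusted p = 0.0397 and 0.0282), and without replicates 3 and 4 together the log2 fold change was 0.09. As a share of both subunits per kilobase, Ldha was 26.6%, 31.5%, 27.8% and 32.0% at 70 dB and 33.9%, 35.7%, 39.8% and 49.0% at 94 dB. At 105 dB it was 30.8%, 30.6%, 25.3% and 29.7%. All 94 dB shares were above all other shares.

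**Figure D3:**
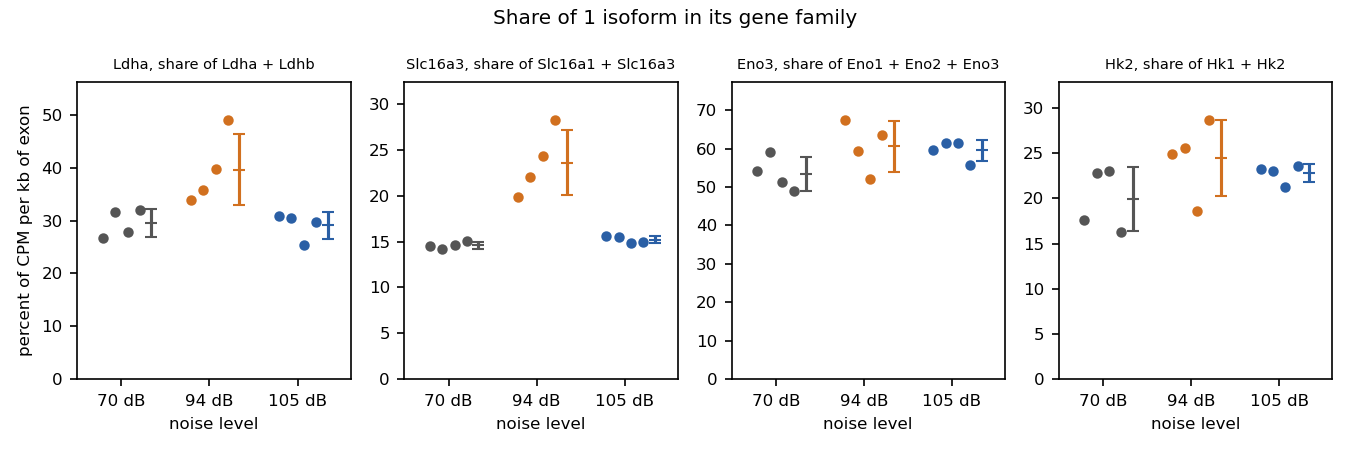
Points are the share of 1 isoform in the summed CPM per kilobase of its family in each library (percent, axes from 0), with the mean ± SD of 4 libraries beside them. The shares of Ldha and Slc16a3 at 94 dB lie above every share at 70 and 105 dB, while those of Eno3 and Hk2 overlap between the groups.

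The pyruvate dehydrogenase kinases, which restrain the oxidation of pyruvate inside the mitochondrion, did not move as a family. Pdk1, the classical HIF target among them, was at 47.4, 38.7, 35.9 and 47.0 CPM at 70 dB, 37.2, 33.2, 31.4 and 35.4 CPM at 94 dB, and 35.6, 40.5, 39.2 and 34.4 CPM at 105 dB. At 94 dB it was called lower (log2 fold change -0.30 ± 0.09 (SE), adjusted p = 0.0264, edgeR), although replicate 1 was above the 70 dB minimum. The call ended without 70 dB replicate 1 or 4 or 94 dB replicate 2 or 3 (adjusted p between 0.0640 and 0.0953). It also ended with the GC and length trend removed (log2 fold change -0.17, adjusted p = 0.232, edgeR). Pdk3 was at 30.8, 32.1, 34.7 and 29.7 CPM at 70 dB, 31.3, 31.3, 25.3 and 24.4 CPM at 94 dB, and 36.2, 37.7, 40.9 and 34.1 CPM at 105 dB. At 94 dB replicates 3 and 4 were lowest, and at 105 dB 3 of 4 libraries were above the 70 dB range, with neither difference called (adjusted p = 0.155 and 0.206, edgeR). Pdk2, the most abundant member per kilobase, was at 120.4 ± 9.86 CPM, 116 ± 17.4 CPM and 125 ± 4.23 CPM in order of noise level. Pdk4, which is induced by fasting, fatty acids and glucocorticoids, had the largest rise of the 41 rows at 105 dB, but the 70 dB libraries were far apart (63.3, 91.9, 87.1 and 56.3 CPM). At 105 dB they were at 99.6, 112, 87.3 and 106 CPM, and the difference was not called (log2 fold change 0.44 ± 0.14 (SE), adjusted p = 0.147, edgeR; with DESeq2 adjusted p = 0.0413). At 94 dB Pdk4 was at 93.6 ± 9.92 CPM (SD, n = 4), also without a call (log2 fold change 0.33 ± 0.14 (SE), adjusted p = 0.115, edgeR). Between 105 and 94 dB its log2 fold change was 0.11 (adjusted p = 0.651, edgeR).

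Of the 8 other hypoxia targets 1 rose, 1 fell and 6 did not pass at 94 dB. These counts were near the shares of all genes, 13.9% called higher and 12.2% lower. Higd1a, a mitochondrial inner membrane protein induced by low oxygen, was at 38.0, 43.0, 40.9 and 49.9 CPM at 70 dB, 58.3, 57.6, 69.8 and 59.8 CPM at 94 dB, and 46.1, 45.5, 47.6 and 41.9 CPM at 105 dB. All 94 dB libraries lay above all others (log2 fold change 0.52 ± 0.09 (SE), adjusted p = 6.15e-04, edgeR), and the call held under each of the 24 alternatives run. The histone demethylase Kdm3a was at 44.4, 45.4, 51.0 and 42.8 CPM at 70 dB, 43.6, 41.9, 35.9 and 36.6 CPM at 94 dB, and 47.2, 46.6, 45.5 and 50.8 CPM at 105 dB. Replicate 1 at 94 dB lay inside the 70 dB range and replicates 2, 3 and 4 below it, and the difference just passed (log2 fold change -0.22 ± 0.08 (SE), adjusted p = 0.0489, edgeR). It was lost without any one of 11 of the 12 libraries, all but 94 dB replicate 1 (adjusted p between 0.0510 and 0.179).

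Vegfa, the vascular growth factor, was at 77.9, 73.0, 83.6 and 66.7 CPM at 70 dB, 81.6, 76.2, 75.8 and 89.0 CPM at 94 dB, and 75.8, 69.8, 69.6 and 85.0 CPM at 105 dB. The groups overlapped (log2 fold change 0.10 ± 0.08 (SE), adjusted p = 0.413 at 94 dB, edgeR; -0.004 and adjusted p = 0.985 at 105 dB). Egln3, the oxygen-sensing prolyl hydroxylase that is itself a HIF target, was at 30.6 ± 3.85 CPM, 33.5 ± 5.66 CPM and 32.0 ± 2.39 CPM in order of noise level (SD, n = 4; adjusted p = 0.426 and 0.789, edgeR). Bnip3, a mitophagy receptor whose promoter above holds CACGTG, was at 49.5 ± 5.86 CPM, 47.8 ± 6.07 CPM and 45.4 ± 2.14 CPM. For Adm, the vasodilator adrenomedullin, the libraries spanned 6.34 to 7.71 CPM, 5.31 to 8.45 CPM and 6.88 to 7.67 CPM. Ankrd37 was low, with 2.71 to 3.15 CPM, 2.65 to 2.95 CPM and 2.27 to 4.15 CPM, and it shares exon bases with Ufsp2 and Lrp2bp on the opposite strand, so its counts are uncertain. Ndrg1, a stress-responsive gene of Schwann cells and epithelia, was at 419 ± 33.2 CPM, 389 ± 43.4 CPM and 342 ± 36.5 CPM. Its fold change at 105 dB was the most negative of the 41 rows, without passing (log2 fold change -0.29 ± 0.09 (SE), adjusted p = 0.121, edgeR). Schwann cell markers summed to 5185, 3172, 5032 and 3757 CPM at 70 dB, 2609 to 3614 CPM at 94 dB and 2667 to 3704 CPM at 105 dB. At 105 dB none of these 9 markers was called against 70 dB. Their median log2 fold change was -0.38, and their part in the Ndrg1 values was not tested.

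At each noise level, the muscle isoforms Eno3 and Pgam2 were highest in the library with the highest summed skeletal muscle markers. Of 14 skeletal muscle markers 13 could be tested, and none passed in any of the 3 comparisons. The marker left out, Tnnc2, was at 0.131 CPM or less on average in each group and at 0 in 5 libraries, and no other muscle marker was at 0 in any library. The summed muscle markers were 8065, 11000, 8201 and 7216 CPM at 70 dB, 11720, 8463, 6173 and 12070 CPM at 94 dB, and 10930, 11500, 11730 and 9146 CPM at 105 dB. At 94 dB, replicates 1 and 4 had the highest muscle sums and also the highest Eno3, Pgam2 (176, 127, 117 and 214 CPM), Pfkm (482, 405, 360.1 and 460.1 CPM) and Slc2a4 (103, 92.3, 84.3 and 115 CPM). At 70 dB replicate 2 had the highest sum and the highest Eno3, Pgam2 (122, 155, 113 and 108 CPM) and Slc2a4. Pkm and Tpi1 did not follow this order, since 94 dB replicate 3, with the lowest muscle sum of the 12 libraries, was second highest for both. Nor did Ldha, which was second highest of the 94 dB libraries there (618 CPM). Hk2 at 94 dB was lowest in replicate 3 (35.8 CPM) and highest in replicate 4 (59.4 CPM), as the muscle sums were. In the other groups Hk2 did not follow the sums. It was highest in replicate 3 at 70 dB (44.1 CPM) and lowest in replicate 3 at 105 dB (42.6 CPM). At 105 dB replicate 3 had the highest sum, with the highest Eno3 and Pgam2 (152, 152, 206 and 132 CPM) of its group. Slc2a4 was lowest there (85.7 CPM). Between the groups, the mean muscle sum was 9606 CPM at 94 dB and 10830 CPM at 105 dB. Mean Eno3 was 455 and 371.5 CPM and mean Pgam2 158 and 161 CPM, in the same order.

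Neutrophils are white blood cells that live largely by glycolysis. Of 12 neutrophil markers, 5 were called higher at 94 dB (S100a8, S100a9, Camp, Mpo and Cebpe), and the sum was 8320 to 10270 CPM at 70 dB, 8425, 12490, 12760 and 16200 CPM at 94 dB, and 9126 to 10890 CPM at 105 dB. The count was 2 without 94 dB replicates 3 and 4, and 3 higher and 1 lower on removal of the GC and length trend. Those fits called 7.97% and 16.5% of all genes, in either direction. With all libraries, 13.9% of all genes were called higher and 12.2% lower at 94 dB. In 94 dB replicate 1 the neutrophil sum was inside the 70 dB range, and Slc16a3 (43.2 CPM), Slc2a1 (159 CPM), Pgk1 (347 CPM) and Higd1a (58.3 CPM) were above every 70 dB library there. Within the 94 dB group, Pkm rose in the order of the neutrophil sums, from 1259 CPM in replicate 1 to 1892 CPM in replicate 4. Slc16a3 was also lowest in replicate 1 and highest in replicate 4 (60.9 CPM). Slc2a1 was lowest in replicate 4 (143 CPM), Pgk1 highest in replicate 1 and Higd1a highest in replicate 3. Erythroid markers summed to 19960 to 24260 CPM at 70 dB, 20460 to 34180 CPM at 94 dB and 24110 to 33300 CPM at 105 dB, with 3 of 11 higher and 1 lower at 94 dB (1 and 0 without replicates 3 and 4). Stria vascularis markers summed to 1507 to 1621, 1342 to 1498 and 1486 to 1533 CPM, with 0 higher and 2 of 10 lower at 94 dB (none without replicates 3 and 4). Endothelial markers (454 to 492 CPM over all libraries) had 1 of 10 higher and 1 lower. The part of these cell types in the differences was not tested.

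**Figure D4:**
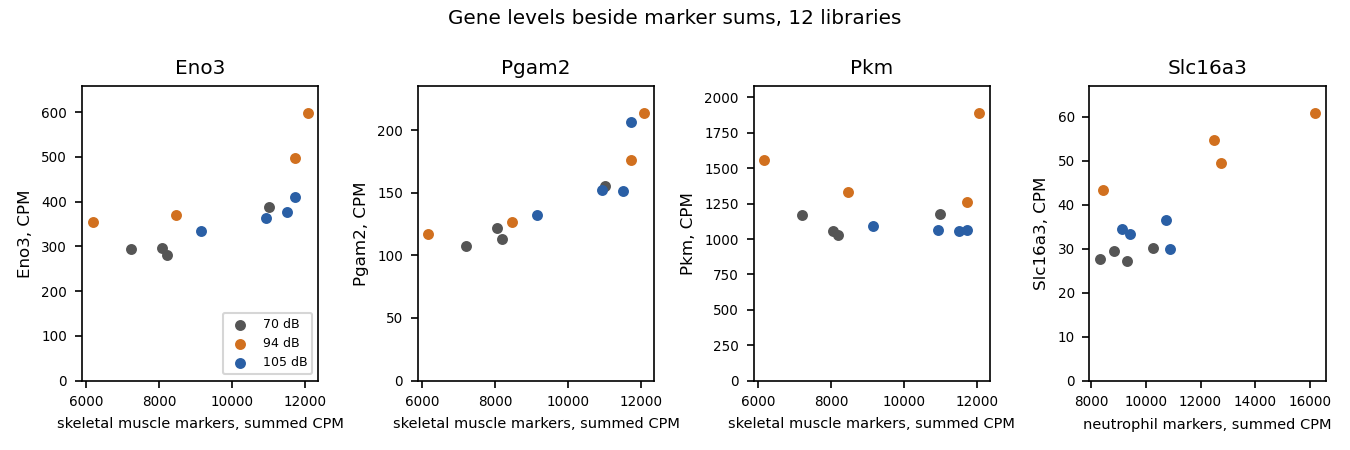
Each point is 1 of the 12 libraries, with the summed CPM of skeletal muscle or neutrophil markers on the horizontal axis and the CPM of 1 gene on the vertical axis, coloured by noise level. Within each noise level, Eno3 and Pgam2 are highest in the library with the highest muscle sum. Pkm is high also in the 94 dB library with the lowest sum. Slc16a3 at 94 dB is above the other groups also in replicate 1, whose neutrophil sum is 8425 CPM. Within the 94 dB group Slc16a3 is lowest in replicate 1 and highest in replicate 4, which has the highest neutrophil sum.

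The direct comparison of 105 dB with 94 dB asks whether the louder noise gave the same levels. It shares the 94 dB libraries with the comparison above, so that a high or low 94 dB library enters both. Of the 41 rows 3 were higher at 105 dB and 9 lower, against 8.06% and 9.23% of all genes. The 9 that were lower were Slc2a3, Pfkl, Pfkfb4, Aldoc, Tpi1, Eno2, Pkm, Slc16a3 and Higd1a, and the 3 that were higher were Ldhb, Pdk3 and Kdm3a. The groups did not overlap for 12 rows (29.3%), against 21.3% of all genes. In the comparison of 105 dB with 70 dB they did not overlap for 4 rows (9.76%, namely Slc2a1, Pfkfb1 and Pfkfb3 above and Eno2 below), against 10.8% of all genes.

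Side by side, Slc16a3 stood at 0.87 for 94 against 70 dB and -0.63 for 105 against 94 dB on the log2 scale (adjusted p = 0.00117 for the second, edgeR). For Higd1a the 2 values were 0.52 and -0.44 (adjusted p = 0.00404), for Pkm 0.45 and -0.50 (adjusted p = 0.00540), and for Tpi1 0.52 and -0.45 (adjusted p = 0.00961). In the opposite direction, Ldhb stood at -0.29 and 0.43 (adjusted p = 0.00437). Pdk3, which was not called at 94 dB, was 1.33-fold higher at 105 dB than at 94 dB (log2 fold change 0.41 ± 0.09 (SE), adjusted p = 0.00831, edgeR). Slc2a1 and Pgk1, both called against 70 dB, did not pass here (-0.13 ± 0.07 and -0.18 ± 0.07, adjusted p = 0.200 and 0.0761), with edgeR (with DESeq2 adjusted p = 0.0286 for Pgk1), and nor did Gapdh, Eno3 or Hk2 (adjusted p = 0.520, 0.228 and 0.553).

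Without 94 dB replicates 3 and 4, Slc16a3 was the 1 row of the 41 still called between 105 and 94 dB (log2 fold change -0.54, adjusted p = 0.0248, edgeR), where 1.07% of all genes were called. Higd1a (-0.36, adjusted p = 0.0705), Slc2a3 (-0.37, adjusted p = 0.0706) and Ldhb (0.39, adjusted p = 0.0753) then just missed. The values for Tpi1 and Pdk3 dropped to -0.22 and 0.25 (adjusted p = 0.169 for both), and that for Pkm to -0.28 (adjusted p = 0.0847). Over all genes the number called fell from 3372 to 217 in that fit, which has 2 libraries at 94 dB. In the fit without the GC and length trend, 6 of these 12 were called (Slc2a3, Tpi1, Ldhb, Slc16a3, Pdk3 and Higd1a), which is 14.6% of the rows against 9.88% of all genes. Pfkl, Pfkfb4, Aldoc, Eno2, Pkm and Kdm3a lost their call in that fit, Pkm at a log2 fold change of -0.31 (adjusted p = 0.0520, edgeR). Single libraries also ended calls here. Slc2a3 was lost without 94 dB replicate 2 (adjusted p = 0.0502) and Pfkl without 105 dB replicate 2 (0.0521). Pfkfb4 dropped out on leaving out 94 dB replicate 4 or 105 dB replicate 3 (0.0903 and 0.0635), and Eno2 without 94 dB replicate 3 or 4 or 105 dB replicate 2 (0.0649 to 0.0803). Aldoc (-0.22 ± 0.07 in the full set) was lost without 94 dB replicate 1, 3 or 4 or 105 dB replicate 1, 2 or 4 (0.0519 to 0.125). Kdm3a was lost without 94 dB replicate 3 or 4 or 105 dB replicate 1, 2 or 4 (0.0503 to 0.0979).

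**Figure D5:**
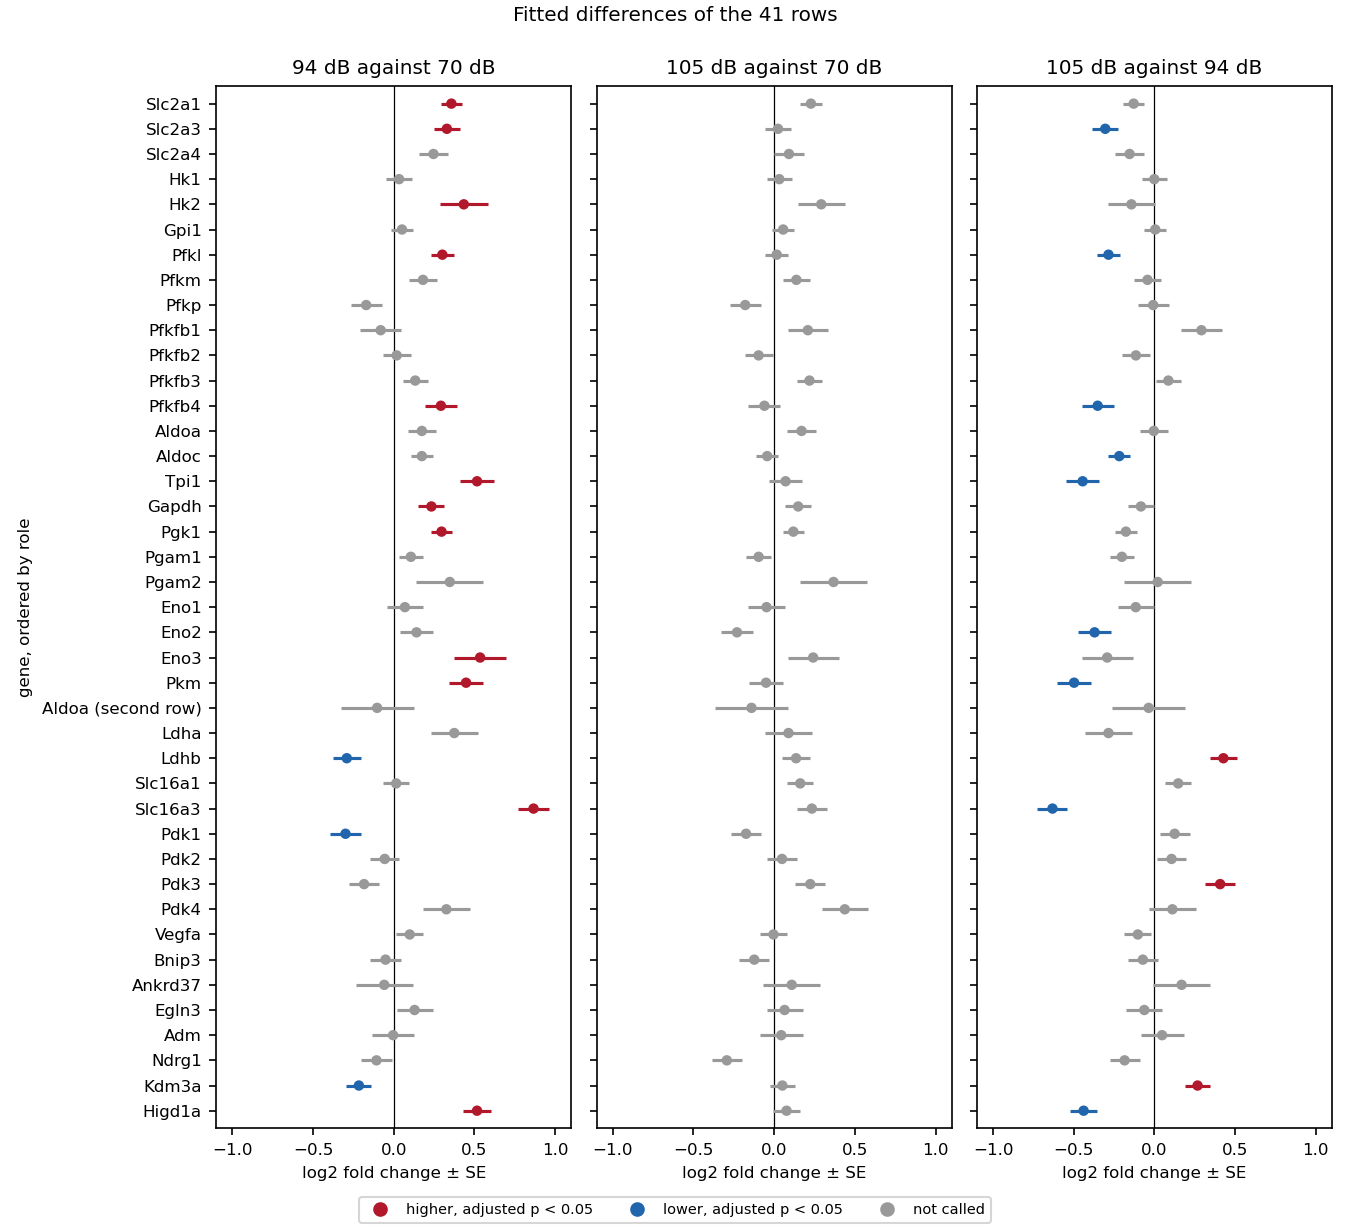
Points are the fitted log2 fold changes of the 41 rows and the lines their standard errors, in the 3 comparisons, with genes ordered by role. Red and blue points passed the test: 12 higher and 3 lower at 94 dB, none at 105 dB against 70 dB, and 3 higher and 9 lower at 105 dB against 94 dB.

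Other genes of the same pathways came from lists with 37, 22, 14 and 31 names. Of the wider glycolysis and pyruvate list, 35 were tested, and at 94 dB 6 were higher and 2 lower, with none at 105 dB against 70 dB. Over all genes 13.9% were called higher and 12.2% lower at 94 dB. Without 94 dB replicates 3 and 4 the list had 2 higher (Mpc2 and Hk3) and 0 lower. Removal of the GC and length trend gave 4 higher and 0 lower. Those fits called 7.97% and 16.5% of all genes, in either direction. The mitochondrial pyruvate carrier Mpc2 rose from 70.8 ± 3.05 to 108 ± 18.2 CPM at 94 dB (SD, n = 4; log2 fold change 0.60, adjusted p = 6.69e-04, edgeR), and Hk3, the hexokinase of myeloid cells, from 56.8 ± 5.61 to 79.7 ± 8.62 CPM (0.49, adjusted p = 8.13e-04). Slc2a8 and Pck2 were also higher at 94 dB (log2 fold changes 0.39 and 0.39), and Slc2a6 was lower at 105 dB than at 94 dB (-0.41). Of 21 glycogen genes, 3 fell at 94 dB and 1 at 105 dB, where 0.508% of all genes were called lower. Without 94 dB replicates 3 and 4 the 3 became 1 (Ppp1r3b), and with the trend removed 2 fell and 1 rose. Ppp1r3b, which targets the phosphatase that activates glycogen synthase, was lower at both levels (37.0 ± 1.37 CPM at 70 dB, 28.8 ± 1.18 at 94 dB and 28.0 ± 1.00 at 105 dB; adjusted p = 9.87e-04 and 0.00234). Gsk3b and Phka2 were lower at 94 dB (-0.33 and -0.27), and Phkb was higher at 105 dB than at 94 dB (0.26).

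Of the 14 HIF subunits and regulators, 4 were higher and 2 lower at 94 dB, and none passed at 105 dB. Over all genes 13.9% were called higher and 12.2% lower at 94 dB. The prolyl hydroxylase Egln2 rose from 77.6 ± 4.78 to 120 ± 14.2 CPM (SD, n = 4; log2 fold change 0.63, adjusted p = 2.28e-04, edgeR). Hif1a, the oxygen-regulated subunit, fell from 95.5 ± 2.73 to 79.0 ± 5.01 CPM (-0.27, adjusted p = 0.00542), and the partner Arnt2 fell by 0.30 on the log2 scale. Cited2, which competes with HIF for its coactivator, rose by 0.35 and Os9 by 0.28, and Vhl was lower at 105 dB than at 94 dB (-0.22). Without 94 dB replicates 3 and 4, 2 of the 14 were higher (Egln2 and Os9) and none lower, and with the trend removed 2 were higher and 1 lower. Over all genes those fits called 7.97% and 16.5%.

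A second set of 30 hypoxia targets had 9 higher and 5 lower at 94 dB and 6 higher and none lower at 105 dB. Over all genes 13.9% were called higher and 12.2% lower at 94 dB, and 1.11% and 0.508% at 105 dB. The 94 dB counts became 6 and 1 without replicates 3 and 4 (7.97% of all genes called), and 8 and 4 with the trend removed (16.5% of all genes called). Ddit4 (REDD1), an inhibitor of mTORC1 that is also induced by glucocorticoids, rose from 26.3 ± 1.66 CPM to 288 ± 68.8 CPM at 94 dB and 167 ± 16.3 CPM at 105 dB (SD, n = 4; log2 fold changes 3.45 and 2.66, adjusted p = 2.14e-07 and 1.06e-06, edgeR). Dusp1, an immediate early phosphatase, rose from 55.6 ± 9.06 to 181 ± 15.1 and 197 ± 28.2 CPM. Hilpda, a lipid droplet protein, rose by 0.93 and 0.80 on the log2 scale and Jmjd6 by 0.46 and 0.49. Loxl2, a collagen cross-linking enzyme, fell at 94 dB (-0.49, adjusted p = 0.00107). Ddit4, Dusp1, Hilpda, Stc2 and Jmjd6 were among those called at 105 dB, and each of these was also called at 94 dB with replicates 3 and 4 left out. Vegfa, Egln3, Bnip3, Ankrd37, Adm and Ndrg1 passed in neither comparison with 70 dB. Both sets were chosen with earlier results of these data known, and the difference between them was not tested.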

How the data were processed

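Whole-number read counts per gene were deposited by the authors in 1 table for all 12 libraries; the submitters' processing notes name CASAVA, STAR, featureCounts 1.5.0-p3 and the mm10 build. Nothing used here states the settings, the annotation, the use of strand or the treatment of reads with several alignments. Groups and replicates came from the sample titles, and no column of values was left unused. Gene symbols, positions and exon lengths are from GENCODE M21 (35474 of 35496 IDs matched), and promoters from RefSeq.

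The deposited counts entered edgeR 4.0.16 (R 4.3.3) without change, with filterByExpr with a minimum count of 10 (19497 genes, 99.9% of counts), TMM factors, 1 mean per group over all 12 libraries (9 residual degrees of freedom), robust glmQLFit and glmQLFTest, and Benjamini-Hochberg adjustment over all genes with a threshold of 0.05 (two-sided). The fit was tested on simulated data. Standard errors are derived from the F statistic. CPM per kilobase divides by summed exon length. No 2 libraries were duplicates (Pearson's r of log2 CPM within groups 0.984 to 0.991). The members and lists were chosen with earlier results of these data known. All 41 rows are named; each library's level is given for the 15 members with the smallest adjusted p among those called, for Slc2a1, Gapdh, Pgk1, Ldha, Ldhb and Vegfa, and for Hk2, Pdk4, Pgam2, Pfkm and Slc2a4 in part, which were chosen after their values were seen. Of the other lists, up to 6 called genes each are named by smallest adjusted p, and Stc2 beyond that rule; some genes this rule selects are not reported here. Alternatives were other size factors, filters, DESeq2 1.42.0, a replicate block, a GC and length trend, a fold threshold and libraries left out. Depth limits cover counting error only.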

Additional observations from a re-analysis of the deposited data

Results flagged for a closer look

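In groups of 4 libraries, the highest or lowest value was compared with the rest by its gap to the nearest library over the whole range (Dixon's test at 95%). Of 123 checks (41 rows in 3 groups) 7 stood out, where chance gives about 1 in 20. Hk2 in 94 dB replicate 3 was at 35.8 CPM, against 57.9 to 59.4 CPM in the other 3. The second Aldoa row in the same library was at 1.42 CPM, against 2.47 to 2.56 CPM. In 105 dB replicate 3, Ldhb was at 724 CPM (550.3 to 569 CPM in the others), Gpi1 at 491 CPM (444 to 450 CPM) and Pfkfb4 at 29.1 CPM (35.0 to 35.5 CPM). Eno3 in 70 dB replicate 2 was at 388 CPM, against 280 to 296 CPM, in the library with the highest skeletal muscle sum of its group (11000 CPM). Pfkfb2 in 70 dB replicate 1 was at 18.3 CPM, against 16.3 to 16.6 CPM.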

How the results depend on the processing

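Of the 41 rows, 15 were called at 94 dB against 70 dB, 0 at 105 dB against 70 dB and 12 at 105 dB against 94 dB. Beside each number of rows above 0 stands the share of all genes called in the same fit, or its range over several fits. This share was 26.1%, 1.62% and 17.3% in the fits just given. At 94 dB the number was 9 with only the 8 libraries compared (22.0% of the rows, all genes 22.4%), 7 with a GC and length trend removed (17.1%, all genes 16.5%), 9 with that trend and a replicate block (all genes 17.5%), and 2 at a fold threshold of 1.2 (Slc16a3 and Higd1a, all genes 4.14%). It was 7 without 94 dB replicates 3 and 4 (all genes 7.97%) and 17 with DESeq2 (all genes 29.9%). With single libraries left out it was 9 to 15 (all genes 17.5% to 27.3%). It was 9 without 70 dB replicate 1, 70 dB replicate 4 or 94 dB replicate 4. At 105 dB it was 2 with DESeq2 (Slc2a1 and Pdk4, all genes 4.96%), 1 with the trend and the replicate block together (Pfkfb3, adjusted p = 0.0456, all genes 3.35%), and 0 in each of the other alternatives. Between 105 and 94 dB it was 6 with the trend removed (all genes 9.88%) and 1 at the fold threshold (all genes 0.728%). It was 1 without 94 dB replicates 3 and 4 (all genes 1.07%), and 8 to 12 with single libraries left out (all genes 8.31% to 19.1%). The replicate block alone gave 11, 0 and 12 calls, without Hk2, Gapdh, Eno3 and Kdm3a at 94 dB (adjusted p between 0.0646 and 0.0746, edgeR). The same fit called 26.1%, 2.46% and 17.3% of all genes. Same-numbered libraries were not paired by the labels, their deviations correlated between -0.149 and 0.182 (3 of 12 pairs over 0.1), and 4 of the 12 correlated best with their own number. The sample codes of 105 dB replicates 3 and 4 end in 4 and 5, and a block on those codes was not run. Over 2952 values of single rows under the alternatives, 2681 kept direction and side of the threshold, 150 lost the call and 16 gained one. The other 105 changed sign without being called in either fit, among them Aldoa, Pgam1 and Pgam2 at 94 dB with the trend removed (-0.03, -0.06 and -0.04) and Eno2 at 94 dB without replicates 3 and 4 (-0.06). Apart from fits with fewer libraries, the cause was not tested. Of all genes called, 53.4% were higher at 94 dB against 70 dB, 68.7% at 105 dB against 70 dB and 46.6% at 105 dB against 94 dB with TMM. With upper-quartile factors these were 45.0%, 58.3% and 50.5%. Depth was not limiting for these genes, apart from Ankrd37, Pfkfb1, Adm and the second Aldoa row, which were under 10 CPM.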
